A study of Mus musculus with 10 samples.

Results

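Zeb1 and 9 other genes of the epithelial-mesenchymal transition were followed in lung RNA of mice fed fish oil or coconut oil. They were the transcription factors Zeb1, Zeb2, Snai1, Snai2, Twist1 and Tcf4, the epithelial genes Cdh1 and Epcam, and the mesenchymal genes Vim and Cdh2, together 10 of the 24059 gene symbols in the count table. Zeb1 was chosen by its difference between the diets in these same counts, so its values are a description without a test. The other 9 genes were included for their roles in the transition. Female C57Bl/6 mice ate a high-fat diet with added cholesterol, enriched either in menhaden fish oil (FO, 5 mice) or in coconut oil with some olive oil (CO, 5 mice), and corn oil was part of both. Each sample was the whole lung of a separate mouse, flushed with PBS, taken at an age of 14 weeks after 8 weeks of diet and after pulmonary function testing. Neither group ate a standard diet. The comparison asks how a diet rich in n-3 fatty acids changes gene expression in the lung.

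In the epithelial-mesenchymal transition, epithelial cells lose the junctions that hold them together and take on features of motile mesenchymal cells. ZEB, SNAIL and TWIST proteins repress epithelial genes such as Cdh1 by binding E-box sequences, and microRNAs of the miR-200 family in turn repress Zeb1 and Zeb2. In normal lung the same factors are present mainly in fibroblasts, endothelium and some leukocytes, while Cdh1 and Epcam mark epithelium.

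After TMM scaling, Zeb1 was lower in every FO mouse than in every CO mouse, and its mean FO level was 55.2% of the CO level. Its relative Zeb2 and the E protein gene Tcf4 overlapped between the diets, and so did Cdh1, Epcam and Vim. Snai1 and Snai2 were at the edge of what the depth could show, and Cdh2 and Twist1 were below it. Of the 5 members that passed edgeR's filter on low counts (Zeb1, Zeb2, Tcf4, Cdh1 and Vim), the 4 chosen by role had unadjusted p-values above 0.05, the threshold for a call. At that threshold edgeR called 71 of 2438 genes (2.91%), with 41 (1.68%) higher with FO and 30 (1.23%) lower, and 0 after Benjamini-Hochberg adjustment (DESeq2, on the same genes, called 62 before and 1 after it). Without FO mouse 2 edgeR called 156 genes, 46 higher with FO and 110 lower.

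Depth limited all of these values. The total ranged from 229766 counts in CO mouse 1 to 1124963 in FO mouse 2, and Rn45s, the precursor of ribosomal RNA, took between 21.8% in CO mouse 4 and 87.0% in FO mouse 3. Outside Rn45s, the 10 mice had between 45177 (CO mouse 1) and 473254 (FO mouse 2) counts, with medians of 235781 for FO and 136211 for CO. Shallow mice were FO mouse 3 with 46470, CO mouse 1 with 45177 and CO mouse 2 with 55639 counts outside Rn45s. FO mouse 2 had 8.53% of its counts outside Rn45s on the nuclear RNA Malat1 and CO mouse 5 had 6.15%, where the other 8 mice had at most 1.05%. The library kit was either poly(A)-based or ribosomal depletion, and which mouse had which is not given in the sources used here, so kit and diet cannot be told apart. No 2 mice had identical counts.

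Zeb1, a zinc finger and homeobox repressor of epithelial genes, lies on the plus strand of chromosome 18 from 5591860 to 5775467 (mm10). The FO mice 1 to 5 had 73, 119, 9, 75 and 24 Zeb1 counts, and the CO mice 1 to 5 had 18, 30, 53, 136 and 148. After scaling by edgeR's TMM method, these were 78.0, 84.5, 54.0, 86.1 and 73.0 CPM (counts-per-million) in the FO mice, and 111, 148, 108, 133 and 180.5 CPM in the CO mice. The highest FO mouse, number 4, lay below the lowest CO mouse, number 3, and the FO mice were also the more uniform group. Of all 2438 genes tested, 11 (0.451%) had groups that did not overlap, 5 of them lower in the FO group. Among the 252 assignments of the mice, a share of 0.0079 separates the groups by chance alone. This is more than the share seen over all genes. The means were 75.1 ± 12.9 CPM with FO and 136 ± 29.8 CPM with CO (mean ± SD, 5 mice per diet), and the log2 fold change was -0.83 (standard error, SE, 0.23). Since Zeb1 was selected on this contrast, neither value tests anything. In whole lung, fewer cells of a type and less RNA per cell cannot be told apart.

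**Figure D1:**
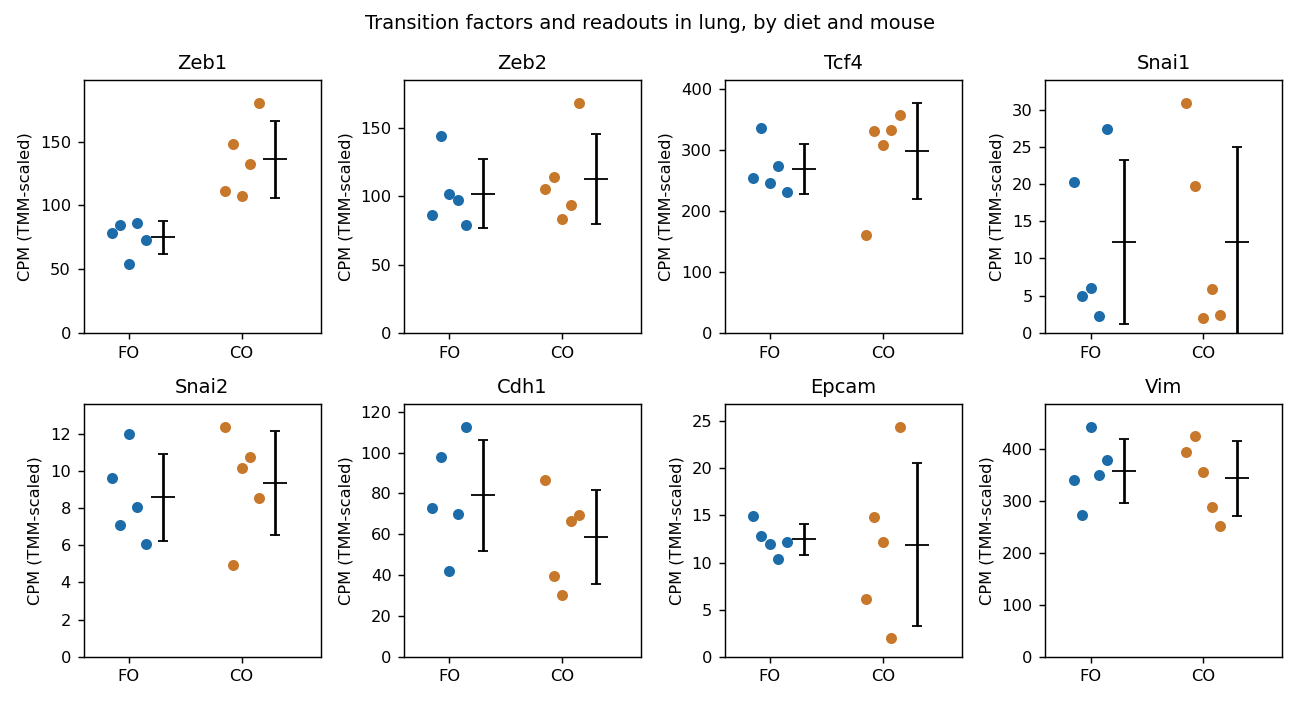
Level of 8 members in each mouse (points, counts-per-million after TMM scaling, linear axes from 0) by diet, with the mean and SD of the 5 mice of a group in black. The FO mice lie between 54.0 and 86.1 CPM for Zeb1 and all CO mice above 107, while the groups overlap in the other 7 panels.

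Without scaling factors, the separation of the groups depended on whether Rn45s was counted. Of the counts outside Rn45s, Zeb1 took 0.0292%, 0.0251%, 0.0194%, 0.0318% and 0.0263% in FO mice 1 to 5, and 0.0398%, 0.0539%, 0.0389%, 0.0485% and 0.0577% in CO mice 1 to 5. These shares did not overlap. Of all counts, Rn45s among them, Zeb1 took 0.00253% to 0.0106% in the FO group and 0.00783% to 0.0379% in the CO group, and these ranges overlapped, with FO mouse 2 above CO mice 1, 2 and 3, though all 5 FO values were below those of CO mice 4 and 5. The shallow mice were the least certain: the 9 counts of FO mouse 3 gave an exact 95% Clopper-Pearson interval of 0.00886% to 0.0368%, and the 18 counts of CO mouse 1 gave 0.0236% to 0.0630%. Such intervals, and the floor of 3 counts used here for a mouse, cover counting error only. With FO mouse 3, CO mouse 1 and CO mouse 2 left out together, an alternative chosen after seeing the data, and under each of the other alternatives, the Zeb1 log2 fold change stayed between -1.33 and -0.69. The predicted gene Gm10125 overlaps Zeb1 on the minus strand and had 0 counts.

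A ratio of counts within a mouse needs no scaling between mice. The ratio of Zeb1 to Zeb2 counts was 0.901, 0.586, 0.529, 0.882 and 0.923 in FO mice 1 to 5, and 1.06, 1.30, 1.29, 1.42 and 1.07 in CO mice 1 to 5. Every FO mouse thus had fewer Zeb1 than Zeb2 counts, and every CO mouse more. The ratio of Zeb1 to Tcf4 counts ran from 0.220 to 0.316 in the FO group and from 0.349 to 0.692 in the CO group, again without overlap. Against Vim, the ratio overlapped, with 0.122 to 0.308 in the FO group and 0.281 to 0.715 in the CO group. Against Cdh1, it ran from 0.649 to 1.29 in the FO group and from 1.29 to 3.75 in the CO group, and FO mouse 3 and CO mouse 1 shared the value 1.29. Because Zeb1 is in each of these ratios, they are descriptions too. Without Zeb1, the ratio of Zeb2 to Tcf4 was 0.377 ± 0.0420 with FO and 0.404 ± 0.161 with CO (mean ± SD, 5 mice per diet, two-sided exact permutation p = 0.952).

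**Figure D2:**
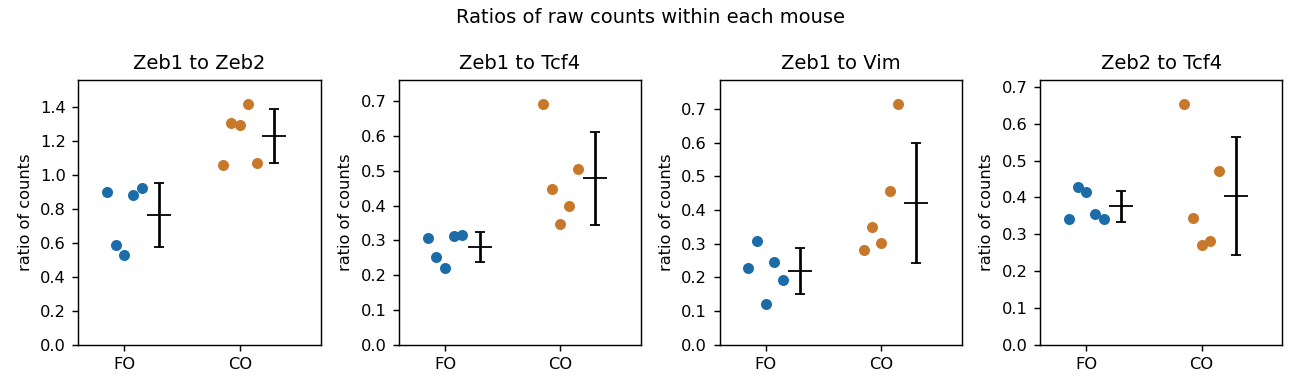
Ratio of raw counts of gene pairs within each mouse (points, linear axes from 0) by diet, with the mean and SD of the 5 mice of a group in black. For Zeb1 to Zeb2 the FO mice end at 0.923 and the CO mice begin at 1.06, whereas Zeb2 to Tcf4 overlaps.

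Zeb2, the paralog of Zeb1 with the same kind of DNA-binding zinc fingers, lies on the minus strand of chromosome 2 from 44983632 to 45117395. Its levels were 86.6, 144, 102, 97.6 and 79.1 CPM in FO mice 1 to 5, and 105, 114, 83.3, 93.6 and 168 CPM in CO mice 1 to 5. The groups overlapped over most of their range, and the highest value of each diet came from the Malat1-rich mouse, FO mouse 2 and CO mouse 5. The log2 fold change was -0.14 (SE 0.25, 95% interval -0.68 to 0.39, edgeR adjusted p = 0.998), and a two-sided exact permutation test gave p = 0.556. That interval includes a fall to 0.626 times the CO level and a rise to 1.31 times. Without CO mouse 5 the log2 fold change was 0.08. Zeb2os, an antisense gene, overlaps Zeb2 and had 29 counts over all mice against 727 for Zeb2. The strand setting of the counting is not given, so reads of the pair cannot be told apart.

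Tcf4, an E protein of the basic helix-loop-helix family that pairs with factors such as Twist1 and is distinct from the Wnt effector Tcf7l2, lies on chromosome 18 from 69343356 to 69689079. Its levels were 253, 336, 246, 274 and 231 CPM in FO mice 1 to 5, and 161, 332, 309, 333 and 357 CPM in CO mice 1 to 5. CO mice 2 to 5 were close together, CO mouse 1 was the lowest of all 10, and the groups overlapped. The log2 fold change was -0.16 (SE 0.23, 95% interval -0.64 to 0.31, edgeR adjusted p = 0.998), and a two-sided exact permutation test gave p = 0.683. Without CO mouse 1 it was -0.30, which did not pass the threshold either.

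Snai1 and Snai2 encode the zinc finger repressors SNAIL and SLUG. The filter removed both, so their fold changes come from fitting all 14161 genes that had any count, where 587 genes (4.15%) were called. Snai1, on chromosome 2 from 167538195 to 167542814, had 19, 7, 1, 2 and 9 counts in FO mice 1 to 5 and 5, 4, 1, 6 and 2 in CO mice 1 to 5. Its levels ran from 2.30 to 27.4 CPM in the FO group and from 2.03 to 30.9 CPM in the CO group, so the ranges of both diets nearly coincided. The mean levels were 12.2 ± 11 CPM with FO and 12.2 ± 12.7 CPM with CO (mean ± SD, 5 mice per diet), while the fitted log2 fold change, which weights deep mice more, was 0.56 (SE 0.57, edgeR adjusted p = 0.931). The two-sided exact permutation p of Snai1 was 0.865. Without the 3 shallow mice the log2 fold change was 1.60 and was called, with an unadjusted edgeR p of 0.017. Snai2, on chromosome 16 from 14705852 to 14709385, had 1 to 11 counts a mouse and 8.57 ± 2.31 CPM with FO against 9.34 ± 2.81 CPM with CO (mean ± SD, 5 mice per diet). Its log2 fold change was -0.18 (SE 0.57, 95% interval -1.29 to 0.92, edgeR adjusted p = 0.995), with overlapping groups and a two-sided exact permutation p of 0.698. An interval that wide leaves a difference of the size seen for Zeb1 undetectable in Snai2 at this depth.

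Twist1, a basic helix-loop-helix factor on chromosome 12 from 33957671 to 33959829, had 1 count in FO mouse 5 and 0 in the other 9 mice. The floor of 3 counts stands for 0.000634% of the counts outside Rn45s in the deepest mouse, FO mouse 2, and for 0.00664% in CO mouse 1. Twist1 was thus not detectable at this depth, and no fold change is given. Exact permutation tests of mean log2 CPM were made for 7 members, all but Zeb1, Twist1 and Cdh2, without adjustment over these genes alone.

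Cdh1 encodes E-cadherin, the adhesion protein of epithelial junctions that is lost in the transition, and lies on chromosome 8 from 106603351 to 106670246. Its levels were 72.7, 98.0, 42.0, 70.0 and 113 CPM in FO mice 1 to 5, and 86.5, 39.6, 30.5, 66.3 and 69.5 CPM in CO mice 1 to 5. The FO mice 5 and 2 were the highest and the CO mice 3 and 2 the lowest, and the groups overlapped. The means were 79.0 ± 27.3 CPM with FO and 58.5 ± 23.0 CPM with CO (mean ± SD, 5 mice per diet). The log2 fold change was 0.48 (SE 0.30, 95% interval -0.15 to 1.11, edgeR adjusted p = 0.998), and a two-sided exact permutation test gave p = 0.222. Limma-voom with quality weights for mice put Cdh1 past the threshold, with a log2 fold change of 0.62 and an unadjusted p of 0.048. Scaled by library size alone, which moved the median of all genes tested to -0.48, the Cdh1 log2 fold change was -0.02, or 0.45 relative to that median.

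Epcam, which encodes an adhesion protein on the surface of most epithelial cells, lies on chromosome 17 from 87635979 to 87651129 and was removed by the filter. It had 14, 18, 2, 9 and 4 counts in FO mice 1 to 5 and 1, 3, 6, 2 and 20 in CO mice 1 to 5. The FO mice were closely grouped, from 10.3 to 15.0 CPM, and the CO mice ranged on both sides of them, from 1.95 to 24.4 CPM. The log2 fold change was 0.06 (SE 0.50, 95% interval -0.91 to 1.03, edgeR adjusted p = 0.995), and a two-sided exact permutation test gave p = 0.635. Its sign turned with the mouse left out, from -0.31 without CO mouse 4 to 0.83 without CO mouse 5.

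ZEB and SNAIL proteins bind E-boxes of the form CACCTG, which reads CAGGTG on the opposite strand. Of the 10 members, 5 were found in the RefSeq promoter table (GRCm38.p6): Vim, Zeb2, Snai1, Twist1 and Epcam. Zeb1, Snai2, Tcf4, Cdh1 and Cdh2 were not found there. In the 250 bases upstream of the start, either form of the motif occurred in 2 of the 8 promoters of these 5 genes, those of Epcam and Snai1, and in 17.2% of all 32851 promoters. Epcam had 2 matches, beginning 187 and 19 bases before the start, as 2.06% of all promoters had at least 2, and Snai1 had 1, beginning 126 bases before the start. Both sequences are shown because Epcam is an epithelial gene of the kind that these factors repress and Snai1 is itself one of the factors. They are on the plus strand at chr17:87635729-87635978 for Epcam and chr2:167537945-167538194 for Snai1, with the motif in capitals. A match describes these letters and shows no binding.
Epcam: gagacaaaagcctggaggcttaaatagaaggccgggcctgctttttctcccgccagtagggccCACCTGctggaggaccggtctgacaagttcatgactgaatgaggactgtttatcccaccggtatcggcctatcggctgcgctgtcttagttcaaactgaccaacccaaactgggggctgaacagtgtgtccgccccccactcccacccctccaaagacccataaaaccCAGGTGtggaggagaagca
Snai1: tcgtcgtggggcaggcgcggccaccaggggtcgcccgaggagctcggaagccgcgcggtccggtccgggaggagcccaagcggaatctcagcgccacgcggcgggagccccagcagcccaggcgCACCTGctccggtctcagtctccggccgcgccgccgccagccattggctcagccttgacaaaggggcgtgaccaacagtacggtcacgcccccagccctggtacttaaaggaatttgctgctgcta

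Vim encodes vimentin, the intermediate filament of mesenchymal cells and also of endothelium and leukocytes, and lies on chromosome 2 from 13573927 to 13582826. Its levels were 341, 274, 444, 351 and 380.3 CPM in FO mice 1 to 5, and 396, 426, 357, 289 and 252 CPM in CO mice 1 to 5. The lowest mouse of each diet was again the Malat1-rich one, FO mouse 2 and CO mouse 5, and the groups overlapped almost entirely. The log2 fold change was 0.06 (SE 0.22, 95% interval -0.39 to 0.51, edgeR adjusted p = 0.998), and a two-sided exact permutation test gave p = 0.730. It was -0.04 without FO mouse 3 and without CO mouse 5, and -0.36 when scaled by library size alone, which is 0.12 above the median of all genes in that fit. Within a mouse, the ratio of Cdh1 to Vim counts, an epithelial over a mesenchymal readout, was 0.232 ± 0.10 with FO and 0.180 ± 0.0859 with CO (mean ± SD, 5 mice per diet, two-sided exact permutation p = 0.413).

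Cdh2 encodes N-cadherin, the cadherin that replaces E-cadherin in many mesenchymal cells, and lies on chromosome 18 from 16588877 to 16809246. It had 2 counts in FO mouse 1, 2 in CO mouse 2, 3 in CO mouse 4, 2 in CO mouse 5 and 0 in the other 6 mice. No mouse was above the floor of 3 counts, so no fold change is given.

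Levels of different genes were compared per kilobase of annotated exon (GENCODE M21), as CPM per kb over all 10 mice. The length was the union of all annotated exons of a gene, and a single transcript can be shorter. It was 27.4 kb for Tcf4, 19.9 kb for Zeb2, 10.3 kb for Zeb1 and 4.57 kb for Cdh1. The order of genes below depends on this length. In CPM alone, Tcf4 (268 with FO, 298 with CO) was above Cdh1 (79.0 and 58.5). Vim was highest with 74.0 ± 13.4 CPM per kb, above Cdh1 in 10 of 10 mice. Cdh1 followed with 15.0 ± 5.71 and Tcf4 with 10.3 ± 2.24 CPM per kb (SD, n = 10 mice), and Cdh1 was above Tcf4 in 8 mice. Zeb1, with 10.3 ± 3.78 CPM per kb, was level with Tcf4 over all mice, but Tcf4 was above Zeb1 in 5 of 5 FO mice and in 1 of 5 CO mice. In the FO group Zeb1 had 7.32 ± 1.26 CPM per kb and in the CO group 13.3 ± 2.91 (mean ± SD, 5 mice per diet). The pooled order around Zeb1 thus did not hold within each diet. In the CO group its mean was above that of Cdh1 (12.8 ± 5.02). In the FO group it was below that of Snai1 (7.52 ± 6.79). Both gaps were within the spread between mice. Snai1 with 7.52, Epcam with 5.55, Zeb2 with 5.38 and Snai2 with 4.43 CPM per kb were next, and these neighbours did not differ beyond the spread between mice, as each was above the next in only 5 or 6 of 10 mice. Cdh2 and Twist1 came last with 0.216 and 0.187 CPM per kb. The annotation used for counting is not given, so the exon lengths may differ from those behind the counts.

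Other genes of the transition were followed in 4 lists, beside all 2438 genes tested, whose median log2 fold change was 0.00 with 50.6% positive. Of 22 cofactors and further transition factors, 10 were tested, 4 with a positive and 6 with a negative log2 fold change and a median of -0.09 (-0.18 to -0.02 with each mouse left out). Of these 10, 1 was called, against 2.91% of all genes tested. It was Wwtr1, which encodes TAZ, a coactivator of the Hippo pathway. Of the 20 genes of this list with any count, 0 were called in the fit of all such genes, where 4.15% were called. Wwtr1 had 87.7, 68.9, 102, 81.5 and 88.2 CPM in FO mice 1 to 5, and 124, 89.1, 102, 181 and 111 CPM in CO mice 1 to 5. Every FO mouse lay below the CO median, though the groups overlapped. Its log2 fold change was -0.55 (SE 0.24, edgeR adjusted p = 0.998, two-sided exact permutation p = 0.024). Because Wwtr1 is named for its call, that permutation p uses the same values and is no separate support. The call was lost in 8 of 19 alternatives, among them the replicate block (-0.50), limma-voom (-0.39), all genes with any count (-0.53) and leaving out FO mouse 1 (-0.57), FO mouse 2 (-0.49), FO mouse 4 (-0.54), CO mouse 1 (-0.54) or CO mouse 4 (-0.32).

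Of 25 genes of TGF-beta and BMP signalling, the main inducers and brakes of the transition, 8 were tested and 0 called by edgeR at the unadjusted threshold, with a median log2 fold change of 0.07 (-0.25 without FO mouse 2) and a range from -0.37 to 0.47. Of 37 genes of epithelial junctions and identity, 9 were tested and 0 called in the same fit, 3 with a positive and 6 with a negative value and a median of -0.13 (-0.04 without CO mouse 4, 0.01 with limma-voom and 0.11 with any count). Of the 32 genes of this list with any count, that last fit called 3, with 2 higher in the FO group and 1 lower, against 4.15% of all 14161 genes. With the default filter, 1 or 2 genes of the list were called, all lower, without FO mouse 1 (1), CO mouse 2 (2) or CO mouse 3 (1), without the 3 shallow mice (2) and by library size alone (1). Those fits called 1.35% to 3.53% of all genes. The lowest was the alveolar tight junction gene Cldn18 with -0.91 (SE 0.53) and the highest the junction gene F11r with 0.50 (SE 0.35), both named after their values were seen. DESeq2 and limma-voom also called 0 genes of these lists. The keratins Krt7, Krt8 and Krt18 had 0 counts in every mouse. The annotation of the counting is not given, so whether reads could be assigned to them cannot be told. Their 0 counts thus do not show that the lung lacks these keratins. The 6 hairpin genes of the miR-200 family and miR-205 also had 0 counts. No small RNA library is described for these mice, so these counts do not measure the microRNAs.

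Of 30 genes of mesenchymal matrix and cytoskeleton, 12 were tested. Of these, 11 had a positive log2 fold change, with a median of 0.23 (0.14 without CO mouse 4), and 2 of the 12 were called, both higher in the FO group, against 2.91% of all genes tested. Of the 29 with any count, 3 were called, also higher, in the fit of all 14161 such genes, where 4.15% were called. No test was made of whether the list held more calls than all genes. Bgn and Acta2 are named for their calls, so their permutation p-values use the same values and are no separate support. Bgn, which encodes the matrix proteoglycan biglycan, had 179, 127, 246, 189 and 225 CPM in FO mice 1 to 5, and 124, 109, 104, 163 and 106 CPM in CO mice 1 to 5. Every FO mouse lay above the CO median, and CO mouse 4 reached into the FO range. The log2 fold change of Bgn was 0.64 (SE 0.24, edgeR adjusted p = 0.998, two-sided exact permutation p = 0.016). It was 0.50 and no longer called without the 3 shallow mice, and -0.02 by library size alone, or 0.46 relative to the median of all genes in that fit. Acta2, the smooth muscle actin that is also a marker of myofibroblasts, had 22.5, 34.8, 12.0, 44.8 and 42.6 CPM in FO mice 1 to 5, and 24.7, 4.95, 24.4, 13.6 and 15.9 CPM in CO mice 1 to 5. FO mice 2, 4 and 5 lay above all CO mice, and FO mice 1 and 3 within their range. Its log2 fold change was 0.99 (SE 0.37, edgeR adjusted p = 0.998, two-sided exact permutation p = 0.119). Scaling by library size alone gave 0.53, or 1.01 relative to the median of all genes in that fit, and ended the call. The filter removed Acta2 without FO mouse 2, without FO mouse 4, and without FO mouse 2 and CO mouse 5 together, so the call was checked there with all genes that had any count. It remained without FO mouse 2 and with both mice left out, and was lost without FO mouse 4 (0.86).

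**Figure D3:**
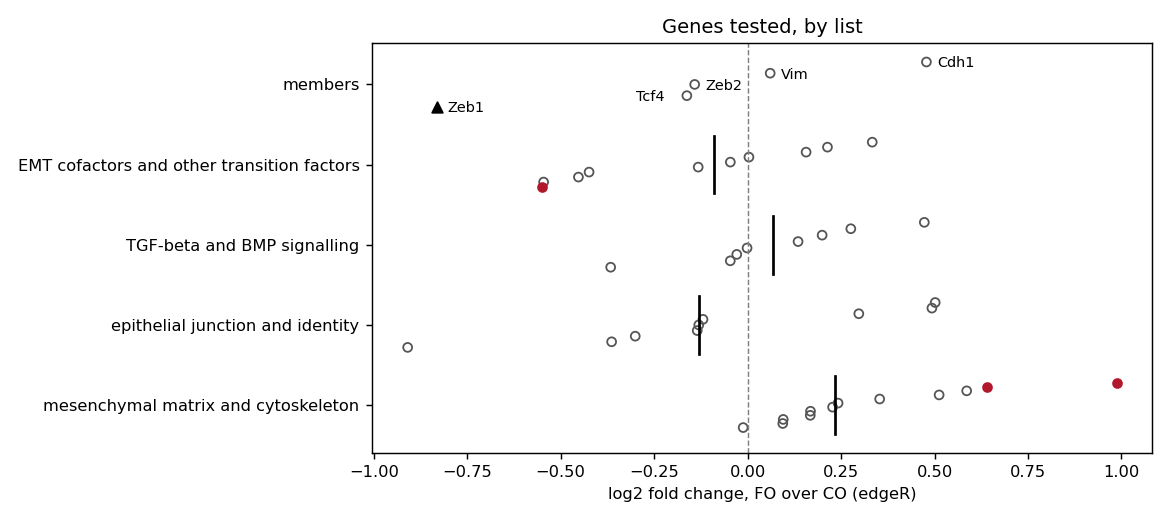
Log2 fold change of FO over CO from edgeR (x axis) for the members and the genes of 4 lists that passed the filter on low counts, 1 point a gene, with the median of each list as a black line. Filled red points are called at an unadjusted p under 0.05 (Wwtr1, Bgn and Acta2), open points are not, and the triangle is Zeb1, which was chosen for its difference and not tested.

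Marker genes of lung cell types were read beside Zeb1, and their part in its difference was not tested. The summed level of 12 endothelial markers was 1082, 1622, 1091, 1429 and 1272 CPM in FO mice 1 to 5, and 1286, 1326, 1342, 1518 and 1726 CPM in CO mice 1 to 5. The groups overlapped, 7 of the 12 were tested, 0 were called by edgeR at the unadjusted threshold, the median log2 fold change was -0.15 (-0.28 without FO mouse 2), and the most abundant gene, the hypoxia-inducible factor gene Epas1, had -0.15 (SE 0.21). The summed level of 8 fibroblast markers was 975, 915, 1175, 1115 and 891 CPM in FO mice 1 to 5, and 1168, 1292, 967, 785 and 1187 CPM in CO mice 1 to 5. Here too the groups overlapped, with 5 of 8 tested, 0 called in the same fit, a median log2 fold change of -0.09 (0.05 without CO mouse 1, -0.23 without CO mouse 4), and -0.09 (SE 0.32) for the most abundant gene, the methyltransferase gene Inmt. Over the alternatives Inmt ran from -0.40 to 0.29, and its FO mean was the higher without FO mouse 2, CO mouse 1 or CO mouse 2. DESeq2 and limma-voom also called 0 genes of both lists. Without FO mouse 2 edgeR called 1 endothelial gene, lower, against 7.36% of all genes in that fit. Every marker of both lists had a count in at least 1 mouse.

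Among epithelial markers, the median of the alveolar type 2 list was positive and those of the alveolar type 1 and airway lists were negative. All 7 tested of 8 alveolar type 2 markers were positive, with a median log2 fold change of 0.33, sums of 2227 ± 698 CPM with FO and 1726 ± 664 CPM with CO (mean ± SD, 5 mice per diet) and 0 called. That median was -0.05 without FO mouse 2, 0.13 without CO mouse 4, 0.52 without CO mouse 5, 0.10 with limma-voom and 0.03 by library size alone, or 0.51 relative to the median of all genes in that fit. Their most abundant gene, the surfactant protein gene Sftpc, had a log2 fold change of 0.45 (SE 0.29), and was called without CO mouse 5 (0.75) and without FO mouse 2 and CO mouse 5 together (0.57). All 7 tested of 8 alveolar type 1 markers were negative, with a median of -0.28 (-0.02 without CO mouse 4) and sums of 855 ± 90.4 against 1141 ± 567 CPM. In this list Aqp5 had 0 counts, which, as for the keratins, does not show absence. The most abundant gene, Emp2, had a log2 fold change of -0.32 (SE 0.25). Of the 7 tested, 1 was called lower, against 1.23% of all genes tested. It was the kinase anchor gene Akap5, with -0.96 (SE 0.34, edgeR adjusted p = 0.998, two-sided exact permutation p = 0.190). CO mice 4 and 5 had 716 and 563 CPM of Akap5 and all other mice 266 or less, and the call was lost without CO mouse 4 (-0.58) and with limma-voom (-0.38). All 6 tested of 8 airway markers were negative, with a median of -0.49 (-0.29 without the 3 shallow mice), sums of 1449 ± 277 against 1871 ± 765 CPM, 0 called, and -0.36 (SE 0.31) for the most abundant gene, the club cell secretory gene Scgb1a1. The CO group was split: the sums of CO mice 1 to 3 were 2392, 2385 and 2502 CPM, above all FO mice (1167 to 1855 CPM). Those of CO mice 4 and 5 were 1127 and 948 CPM, below all FO mice. Scgb1a1 was split in the same way. Limma-voom called 2 airway genes, Scgb3a1 and Bpifa1, both lower, where it called 4.84% of all genes. DESeq2 called 0, where it called 2.54% of all genes. With edgeR 3 airway genes were called, all lower, without CO mouse 5, where 3.13% of all genes were called. By library size alone 2 were called, also lower, where 1.35% of all genes were called. There was 1, again lower, without FO mouse 1, 3, 4 or 5, and without CO mouse 2. The same held without the 3 shallow mice, and without FO mouse 2 and CO mouse 5 together. In the fits with 1 airway call, 2.29% to 3.93% of all genes were called. DESeq2 and limma-voom called 0 of the alveolar type 2 markers. The alveolar type 2, alveolar type 1 and airway sums overlapped between the diets.

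The 12 leukocyte markers summed to 427 ± 118 CPM with FO and 291 ± 113 CPM with CO (mean ± SD, 5 mice per diet). Of these, 3 were tested, 0 called by edgeR, DESeq2 or limma-voom, with a median log2 fold change of 0.38, which is also that of the most abundant gene, the lysozyme gene Lyz2 (SE 0.37). Lyz2 was called without CO mouse 5 (0.79), and its log2 fold change ran from 0.01 to 0.79 over the alternatives. Another gene of this list, which the filter had removed, was called higher without FO mouse 3, FO mouse 5, CO mouse 1, CO mouse 2 or CO mouse 4. That gene was also called higher with Rn45s left out and without the 3 shallow mice. Across the fits that called it, 2.29% to 3.31% of all genes were called with the default filter. The leukocyte median was 0.16 without FO mouse 3, 0.58 without CO mouse 5 and 0.12 without the 3 shallow mice. The 6 smooth muscle markers summed to 122 ± 97.9 against 85.9 ± 35.0 CPM, and the 6 cardiac muscle markers, genes that mouse lung expresses in the muscle sleeve of its pulmonary veins, to 121 ± 111 against 69.9 ± 60.4 CPM. Without FO mouse 2 the FO means were 79.7 CPM for smooth muscle, below the CO mean, and 72.6 CPM for cardiac muscle, and without CO mouse 5 the cardiac CO mean was 45.0 CPM. The most abundant of these were the myosin genes Myh11, with 51.3 ± 61.1 against 28.0 ± 18.0 CPM, and Myh6, with 43.3 ± 43.3 against 30.9 ± 31.3 CPM. Without FO mouse 2 their FO means were 24.4 and 24.5 CPM, both below the CO means. Myh6 was tested and not called, with a log2 fold change of 0.46 (SE 0.58) that was -0.41 without FO mouse 2 and 1.26 without CO mouse 5. Myh11 was removed by the filter. In the fit of all genes with any count it had a log2 fold change of 1.003 (SE 0.34, edgeR adjusted p = 0.905, two-sided exact permutation p = 0.556) and was called. FO mouse 2 had 159 CPM of Myh11 and the other 9 mice 52.4 or less, and without FO mouse 2 the log2 fold change was -0.15. The call was also lost without CO mouse 4 (0.67), with DESeq2 (0.88), limma-voom (0.43) and the replicate block (0.73), by library size alone (0.77), and with FO mouse 2 and CO mouse 5 left out together (0.40). Of all 14161 genes with any count, 587 (4.15%) were called without a mouse left out, 365 higher with FO and 222 lower. Among the markers these were 2 of 6 smooth muscle, 2 of 6 cardiac muscle and 2 of 12 leukocyte genes, all higher, and 1 of 7 alveolar type 1 and 1 of 8 airway genes, both lower. The 5 mesothelial markers had 52 counts in all, and their most abundant gene, Upk1b, had at most 3 counts in a mouse. The sums of these 4 lists overlapped between the diets.

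The genes most like Zeb1 were sought by the correlation of log2 CPM over the 10 mice after the mean of each diet was subtracted. Among 2437 other genes tested, the highest Pearson r was that of Parp14 with 0.94, followed by Epn2 with 0.92, Asxl2 and Ccdc59 with 0.90 and Sf3b2 with 0.88. Between the diets these genes had log2 fold changes of -0.26, -0.25, -0.06, -0.06 and 0.05 in that order. The same measure was 0.59 for Zeb2 (rank 220), 0.56 for Tcf4 (rank 261), 0.42 for Cdh1 (rank 525) and -0.66 for Vim (rank 2327). Within diets, Zeb1 also went with the log2 of the counts outside Rn45s (r = 0.64) and with the log2 of the Malat1 share (r = 0.58). The part of depth and Malat1 in these likenesses was not tested.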

How the data were processed

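The deposited values are raw counts per gene symbol, which the authors made from single-end reads aligned to mm10 with STAR 2.4.0f1, handled with SAMtools 0.1.19 and counted with HTSeq. The annotation and strand setting are not given in the sources used here. The test was edgeR's (4.0.16, R 4.3.3) quasi-likelihood test without robust estimation, after TMM scaling and the default filter. That filter asks for a total of at least 15 counts. In at least 5 mice it also asks for the CPM, before TMM scaling, that 10 counts give in a library of median size, Rn45s included. The threshold was an unadjusted p-value under 0.05, as in the methods of the study, with Benjamini-Hochberg adjustment over all genes tested. Exact permutation tests over the 252 assignments of mice used log2 CPM with a prior count of 2, and their smallest possible p is 0.0079. All samples were grouped by their labels, each value with 5 mice per diet. Genes named are the members, list genes called (at most 4 a list), the most abundant marker of each cell type, and the 5 genes most correlated with Zeb1. For a list gene named for its call, the permutation p uses the same values as the call and is no separate support. Cldn18, F11r, Aqp5, Scgb3a1, Bpifa1, the keratins and overlapping genes are outside this rule, picked after seeing their values. Members and lists were chosen with earlier results of these data known. The code was tested on simulated data. Alternatives were DESeq2 1.42.0, RLE scaling factors, library size alone, all genes with any count, Rn45s left out, limma-voom (limma 3.58.1) with quality weights, a replicate block, leaving out each mouse, the 2 Malat1-rich mice left out and, chosen after seeing the data, the 3 shallow mice left out. Intervals were made with SciPy 1.17.1.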

Additional observations from a re-analysis of the deposited data

Results flagged for a closer look

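Within each diet, a mouse was set apart where its gap to the nearest mouse took most of the range of the group (Dixon's test). This was applied to 35 measures in both diets, 70 groups in all, and set apart 10 values, where chance alone flags about 1 in 20 groups, here 3.5. The measures were the counts outside Rn45s, the Rn45s and Malat1 shares, the CPM of 8 members and of Wwtr1, Bgn, Acta2, Akap5 and Myh11, the summed CPM of the 4 transition lists and 9 marker lists, and 6 count ratios. The 4 transition lists, 3 of the ratios and the 5 genes outside the members were added after the others had been examined. The ratio of Zeb2 to Vim counts was not among the 6 ratios. It was 0.526 in FO mouse 2 against 0.208 to 0.278 in the other FO mice. In CO mouse 5 it was 0.667 against 0.233 to 0.323 in the other CO mice. The count of 10 thus depends on which ratios were taken. FO mouse 2 had 8.53% of its counts outside Rn45s on Malat1, against 0.176% to 0.928% in its group. CO mouse 5 had 6.15%, against 0.135% to 1.05% in its group. Tcf4 was at 161 CPM in CO mouse 1, the mouse with the fewest counts outside Rn45s, and at 309 to 357 CPM in the other CO mice. The summed level of smooth muscle markers was 146 CPM in CO mouse 5 against 56.5 to 80.4 CPM in the other CO mice. That of cardiac muscle markers was 315 CPM in FO mouse 2 against 30.4 to 102 CPM in the other FO mice. Myh11 was at 159 CPM in FO mouse 2, against 13.9 to 41.3 CPM in its group. The summed level of TGF-beta and BMP genes was 809 CPM in FO mouse 2 against 581 to 613 CPM in its group. For epithelial junctions and identity, FO mouse 3 had 935 CPM against 1074 to 1128 CPM, and CO mouse 4 had 1861 CPM against 967 to 1173 CPM. For mesenchymal matrix and cytoskeleton, CO mouse 5 had 1310 CPM against 999 to 1024 CPM. Zeb1 set no mouse apart in either diet, in CPM or in its ratios to Zeb2, Tcf4, Vim and Cdh1.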

How the results depend on the processing

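The count of 71 genes called became 33 by library size alone, 587 with all genes with any count, 107 with Rn45s left out and 118 with limma-voom, and 54 to 156 with each mouse left out, the highest without FO mouse 2. By library size alone 3.03% of the calls were higher in the FO group, against 57.7% with TMM. Same-numbered mice are different animals, and their deviations correlated at a mean r of -0.12 (-0.41 to 0.03), so the numbers were not taken as pairs. With the replicate block 55 genes were called, 35 higher, Zeb1 was at -0.84, and of the values named Wwtr1 (-0.50) and, with any count, Myh11 (0.73) lost their calls. The Zeb1 log2 fold change was -1.33 by library size alone, or -0.85 relative to the median of all genes there, and -0.91 to -0.69 with each mouse left out. Also by library size alone, which moved the median of all genes to -0.48, Zeb2 was at -0.61, Tcf4 at -0.71, Cdh1 at -0.02, Vim at -0.36 and Bgn at -0.02, or -0.13, -0.23, 0.45, 0.12 and 0.46 relative to that median, and Akap5 at -1.85, or -1.37. Wwtr1 was at -1.23 by library size alone, or -0.75 relative to that median, and was still called. With any count, Snai1 was at 0.22 there, Snai2 at -0.73 and Epcam at -0.24. With each mouse left out, Zeb2 ran from -0.34 to 0.08, Vim from -0.04 to 0.15, Cdh1 from 0.30 to 0.60, Tcf4 from -0.30 to -0.09, Snai1 from 0.08 to 1.02 and Epcam from -0.31 to 0.83. Limma-voom called Cdh1 (0.62). Without the 3 shallow mice, Snai1 was called (1.60) and Epcam was at -0.01. List medians by library size alone were -0.67 for cofactors, -0.38 for TGF-beta and BMP signalling, -0.71 for epithelial genes, -0.17 for mesenchymal genes, -0.67 for endothelium, -0.53 for fibroblasts, -0.99 for alveolar type 1 cells and -0.13 for leukocytes. Relative to the median of all genes these were -0.20, 0.09, -0.23, 0.31, -0.20, -0.06, -0.51 and 0.34 in that order. For airway epithelium the list median by library size alone was -0.78, or -0.31 relative to all genes. That of epithelial genes was 0.11 with any count, and that of TGF-beta and BMP signalling ran from -0.25 to 0.19 with each mouse left out. Causes were not tested. All other alternatives kept the sign of Zeb1, which has no test, and the sign and the side of the threshold of the 7 members tested. For Twist1 and Cdh2, at or under the floor, no fold change is given. Depth limits Snai1, Snai2, Epcam, Cdh2 and Twist1 most.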
